A study of Homo sapiens with 8 samples.

Results

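The 500 broadest H3K4me3 domains of U2OS cells were the regions with the most DNA under H3K4me3 peaks among 17298 autosomal regions that held a peak in every one of 6 libraries. H3K4me3 is trimethylation of lysine on the tail of histone H3, and a peak is a stretch of genome where chromatin immunoprecipitation with an antibody to this mark gave more reads than its surroundings. To find the domains, the 6 peak lists were laid over each other on chromosomes 1 to 22, touching peaks were merged, and 17298 of the 30268 resulting regions were kept. The regions were then ranked by the median covered length, in bp under peaks, over 4 of the lists (WT replicate 3 and the 3 ZBTB48 KO replicates), and the 500 highest were taken. The domains were thus chosen by their covered lengths in these 4 lists, which are given as a description without a test.

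The study compared 3 wild-type (WT) clones of U2OS, a human osteosarcoma cell line, with 3 clones in which ZBTB48 had been knocked out (KO). ZBTB48 is a zinc finger protein that binds telomeric repeats and the promoters of a small set of genes. Every clone, WT and KO, had been treated with interferon gamma (IFNγ) at 250 U/ml for 24 h, so that no untreated state was available for comparison. Each library came from a separate clone, and the spread within a genotype therefore holds differences between clones as well as technical spread. A further 2 WT input samples had no peak list and were not analysed here.

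The peak lists were of 2 kinds that did not follow the genotypes. The median peak of WT replicates 1 and 2 was 2310 and 2365 bp wide with a fold enrichment (signal over the background estimated by the peak caller) of 13.6 and 14.1. The median peak of WT replicate 3 and the 3 KO replicates was 1271 to 1483 bp wide with a fold enrichment of 4.18 to 4.63. The input samples carried the same clone numbers as WT replicates 1 and 2, and which lists were called against an input is not given in the sources used here. Each genotype comparison is therefore given with the 3 WT replicates and again with WT replicate 3 alone.

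H3K4me3 is laid down around the start of active and poised genes, usually as a short block over the promoter and the first nucleosomes of the gene. At a minority of genes the mark spreads over several kb, and such broad domains have been found in many cell types at genes for transcription factors and other regulators that define the cell, as well as at some tumour suppressor genes. Genes that every cell needs, such as those for ribosomal proteins, are usually highly transcribed from narrower, CpG-rich promoters.

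The sequences at the gene starts and deep in the marked DNA differed in composition between genes, as shown for the domains ranked 2, 4 and 8, each with a single protein-coding 5′ end. For each gene, the first line is the 120 bases just before the annotated 5′ end, and the second is 120 intronic bases, the farthest into the gene that lay under peaks of all 6 libraries. They were read from GRCh38 and written 5′ to 3′ on the strand of the gene, with CpG dinucleotides in capitals. TNRC18 encodes a large chromatin protein that reads a repressive histone mark. VGF encodes a secreted neuropeptide precursor and is a known target of cyclic AMP signalling. BHLHE40 encodes a basic helix-loop-helix repressor of the circadian and hypoxia responses.
TNRC18 upstream of the 5′ end, chr7:5423835-5423954, minus strand: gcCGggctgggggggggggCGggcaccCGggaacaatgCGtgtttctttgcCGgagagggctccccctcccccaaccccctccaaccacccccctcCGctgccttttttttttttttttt
TNRC18 intron, chr7:5419552-5419671, minus strand: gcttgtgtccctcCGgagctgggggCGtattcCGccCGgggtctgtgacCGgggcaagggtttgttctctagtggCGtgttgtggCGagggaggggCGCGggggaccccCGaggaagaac
VGF upstream of the 5′ end, chr7:101165570-101165689, minus strand: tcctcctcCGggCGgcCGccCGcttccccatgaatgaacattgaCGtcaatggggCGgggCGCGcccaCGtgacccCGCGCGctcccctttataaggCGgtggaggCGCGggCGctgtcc
VGF intron, chr7:101164864-101164983, minus strand: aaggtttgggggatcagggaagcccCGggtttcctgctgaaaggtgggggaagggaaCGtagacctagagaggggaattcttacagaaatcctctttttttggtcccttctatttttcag
BHLHE40 upstream of the 5′ end, chr3:4979317-4979436, plus strand: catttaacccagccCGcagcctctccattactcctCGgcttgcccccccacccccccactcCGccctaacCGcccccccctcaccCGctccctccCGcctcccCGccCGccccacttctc
BHLHE40 intron, chr3:4981626-4981745, plus strand: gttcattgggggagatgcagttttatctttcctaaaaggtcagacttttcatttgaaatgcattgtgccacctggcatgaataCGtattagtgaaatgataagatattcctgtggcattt

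The intronic stretch began 4163 bp from the 5′ end in TNRC18 and held 10 CpG, against 6 CpG in the upstream stretch. In VGF it lay 586 bp from the 5′ end and held 2 CpG, against 16 upstream. In BHLHE40 it lay 2189 bp from the 5′ end and held 1 CpG, against 8 upstream. Marked DNA thus reached into CpG-poor intron in VGF and BHLHE40 and stayed CpG-rich in TNRC18. Motif letters were searched on either strand. The VGF upstream stretch held 1 match to the cyclic AMP response element TGACGTCA and 1 to the E-box CACGTG. It also held 1 to the GC box GGGCGGG and 1 to the TATA box TATAAA, the last as its reverse complement TTTATA. None of these overlapped another. The TNRC18 upstream stretch held 1 GC box match, and the BHLHE40 upstream stretch held 2 overlapping ones, both as the reverse complement CCCGCCC.

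The domains had a median covered length over the 4 ranking lists of 3372 to 16518 bp, with a median of 3924 bp and quartiles of 3577 and 4459 bp. The other 16798 regions had a median of 1594 bp. The merged regions of the domains, counted from end to end, were 7653 bp wide at the median against 2972 bp. Just inside the limit stood FHOD1 with SLC9A5 at 3375.5 bp, HSPA8 at 3372.5 bp and AAK1 at 3372 bp. Just outside stood TAGLN2 at 3371.5 bp, CLCN2 with POLR2H at 3366.5 bp, and a region on chromosome 4 without a gene start, also at 3366.5 bp. No gap separated the domains from the regions below them, and the number 500 marks no natural edge.

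The domain at PLEC, the gene for the cytoskeletal linker plectin, was the broadest and lay at chr8:143932959-143955660. Its covered length was 21489, 20788 and 17963 bp in WT replicates 1 to 3 and 20170, 15073 and 11999 bp in KO replicates 1 to 3. The genotypes overlapped, since KO replicate 1 lay above WT replicate 3. PLEC is transcribed from several alternative first exons. Only 27.6% of the covered length in the 4 ranking lists lay downstream of its annotated canonical 5′ end, and a separate domain ranked 78 held the starts of other PLEC transcripts.

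TNRC18 ranked 2, at chr7:5417360-5429837, with 9735, 10161 and 12478 bp in the WT replicates and 8550, 8117 and 9224 bp in the KO replicates. It was held by 1 unbroken peak in all 6 libraries. All 3 WT replicates were above all 3 KO replicates, as in 45.6% of all 17298 regions, and WT replicate 3 was the highest of the 6. The VGF domain, ranked 4 at chr7:101162064-101174456, covered 12136, 12393 and 11308 bp in WT and 11893, 5251 and 5324 bp in KO. KO replicates 2 and 3 were low there and broken into 3 peaks each, while KO replicate 1 matched the WT range with 1 peak.

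ZFP36, which encodes a protein that destabilises inflammatory mRNAs, shared the domain ranked 3 with PLEKHG2. Its covered length was 14879, 11941 and 9478 bp in WT and 11198, 7273 and 7542 bp in KO. KDM6B encodes a demethylase of H3K27, and its domain covered 14723, 14070 and 8062 bp in WT and 9940, 6835 and 6149 bp in KO. BHLHE40 covered 10690, 10839 and 8121 bp in WT and 9790, 6841 and 4225 bp in KO. In each of these 3 domains KO replicate 1 was above WT replicate 3, and the genotypes overlapped.

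BCL11A, a zinc finger repressor, covered 9289, 9188 and 7321 bp in WT and 7862, 7485 and 6230 bp in KO, all in unbroken peaks. MYC, the growth-promoting transcription factor, covered 8657, 8455 and 6031 bp in WT and 7877, 7604 and 4806 bp in KO, also unbroken. BRD2, a reader of acetylated histones, covered 11514, 10150 and 6740 bp in WT and 9222, 5890 and 6529 bp in KO. These 3 genes stood alone in their domains. ZNFX1, an interferon-responsive RNA sensor that shares its start with the antisense-side lncRNA ZFAS1, was highest in KO replicate 1 at 12555 bp, above the 11802, 11318 and 8246 bp of WT. ARHGEF2, an activator of the GTPase RhoA, ranged from 2830 bp in KO replicate 3 to 10208 bp in WT replicate 1.

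Other domains of the 15 spanned compact runs of genes. The domain of MAZ, PRRT2, PAGR1 and MVP on chromosome 16 covered 18852, 18891 and 8762 bp in WT and 9141, 7223 and 6271 bp in KO. The domain of RAB34, RPL23A, TLCD1 and NEK8 on chromosome 17 covered 14096, 14166 and 8250 bp in WT and 8535, 7341 and 6060 bp in KO. The domain of FKBP2, PPP1R14B and PLCB3 on chromosome 11 covered 13048, 14167 and 6875 bp in WT and 6727, 6697 and 5856 bp in KO. In the 4 ranking lists each of these 3 domains fell into 3 or more peaks. The domain ranked 14 held no protein-coding start but that of MALAT1, an abundant nuclear lncRNA, with 12064, 12006 and 7293 bp in WT and 6925, 6346 and 5657 bp in KO.

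**Figure D1:**
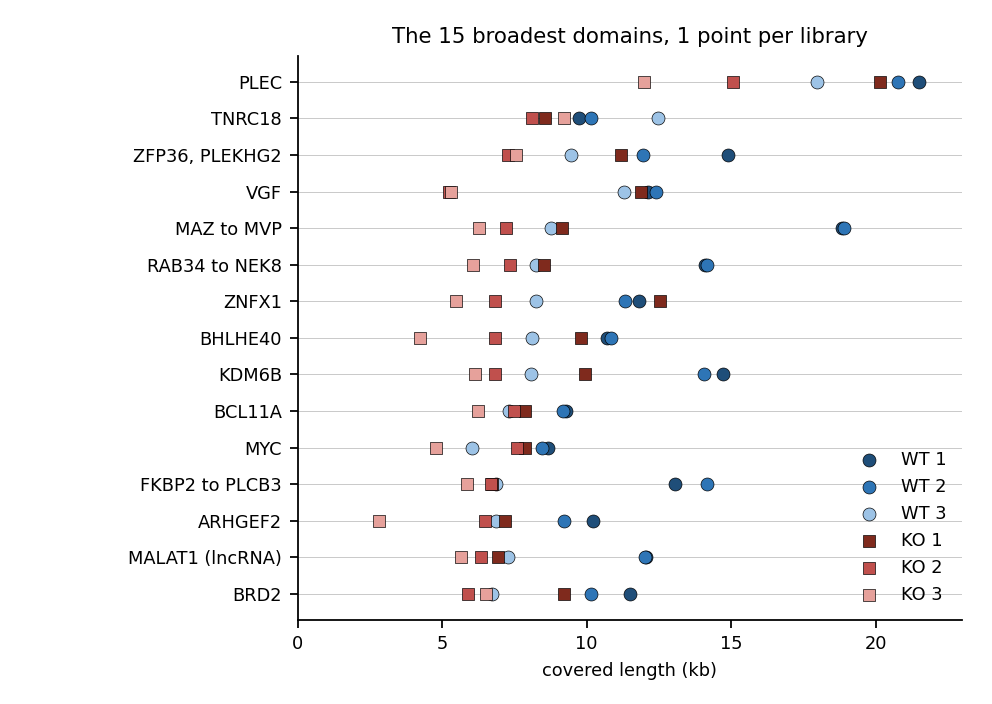
Covered length (kb, horizontal axis) of the 15 broadest domains, named by their genes, with 1 point per library; circles are WT replicates and squares are KO replicates. WT replicates 1 and 2 stand far to the right at the gene-dense domains, such as MAZ to MVP at 18852 and 18891 bp, while at TNRC18 the 6 libraries lie between 8117 and 12478 bp.

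The domains held the canonical 5′ ends of 645 of 19111 autosomal protein-coding genes, which is 3.38%. Of the 500 domains, 296 held 1 protein-coding 5′ end, 102 held 2, 42 held 3 or more and 60 held none. Among the other regions 55.6% held 1, 6.79% held 2, 0.560% held 3 or more and 37.0% held none. Domains with several gene starts were thus a larger share of the broad regions than of the rest. A lncRNA 5′ end lay in 43.6% of the domains against 21.1% of the other regions, and a miRNA gene in 7% against 1.12%. Wider regions have more room for gene starts, and the part of width in these shares was not tested.

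Genes of the pooled identity and signalling lists lay in the domains more often than protein-coding genes at large. The lists were uneven, as given below. The largest shares were 34.3% for immediate early genes, counted here with the signalling lists, and 24.4% for developmental signalling genes. The identity lists stood lower, at 17.4% for mesenchymal and skeletal factors, 6.25% for bone matrix and osteoblast genes and 2.56% for HOX genes. Cytosolic ribosomal protein genes, a housekeeping list, stood at 13.9%. The pooled share is therefore not a share of identity genes alone. Of 177 genes in 5 such lists, 32 had their 5′ end in a domain, which is 18.1% (95% Wilson interval 13.1 to 24.4%). Of 304 genes in 6 housekeeping lists, 21 did, which is 6.91% (4.56 to 10.3%), against 3.38% (3.13 to 3.64%) of all protein-coding genes. These intervals cover counting error only. The lists were chosen with earlier results of these data known, and the intervals do not cover that choice. Among genes whose 5′ end lay in a region called in all 6 libraries, the 3 shares were 24.1%, 7.17% and 5.13%. The housekeeping lists share 4 genes with the interferon list, and without those their count was 18 of 300. The share for the identity and signalling lists fell to 1.13% and that for the housekeeping lists to 4.28% when peaks under a fold enrichment of 4 were dropped before ranking, a setting that retained 4 of the 500 domains.

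The 2 groups of genes also differed in how often they shared a domain. Of the 32 identity and signalling genes, 30 were the only protein-coding start of their domain, which is 93.8%. Of the 21 housekeeping genes, 4 were alone, which is 19.05%. Over all 645 genes in domains 296 were alone, which is 45.9%. Among the housekeeping genes alone in a domain were RPL3, RPS12, TARS1 and GARS1. This difference was not tested.

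Immediate early genes, which are switched on within minutes of a stimulus, had the largest share of the lists at 12 of 35, or 34.3% (20.8 to 50.8%). Among them KLF6, a zinc finger factor of the stress response, covered 10507, 8086 and 6798 bp in WT and 6746, 6365 and 6490 bp in KO in 1 unbroken peak in every library. FOSL2, an AP-1 subunit, covered 12770, 9940 and 5998 bp in WT and 6673, 6223 and 4023 bp in KO. MCL1, a survival factor of the BCL2 family with a short-lived mRNA, covered 8578, 8050 and 5820 bp in WT and 6321, 6475 and 2679 bp in KO. The genotypes did not overlap at KLF6 and did at the other two, against 45.6% of all 17298 regions without overlap and with WT above KO. ZFP36, ZFP36L1 and IER2 completed the 6 broadest of the list, with medians over the 4 ranking lists of 8510, 5827 and 5486 bp.

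Genes of developmental signalling had 10 of 41 starts in domains, or 24.4% (13.8 to 39.3%). HES1, the Notch target that represses differentiation genes, covered 9330, 9736 and 6787 bp in WT and 6367, 5505 and 4310 bp in KO. SMAD7, the inhibitory SMAD of the TGF-beta pathway, covered 14106, 10793 and 5093 bp in WT and 8124, 4643 and 4645 bp in KO. SPRED2, an inhibitor of Ras signalling, covered 8788, 8464 and 4701 bp in WT and 4801, 5233 and 3935 bp in KO. TGIF1, SKI and SKIL, which encode repressors of these pathways, had medians of 4713, 4490 and 4252 bp. Not all members in domains were inhibitors. The Wnt ligand gene WNT5A and the Wnt receptor genes FZD8 and FZD7, named after their values were seen, also lay in domains. WT was above KO without overlap at HES1, as in 45.6% of all regions, and the genotypes overlapped at SMAD7 and SPRED2.

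Transcription factors of mesenchymal and skeletal cells, the lineage of osteosarcoma, had 8 of 46 starts in domains, or 17.4% (9.09 to 30.7%), each alone in its domain. NR2F2, a nuclear receptor of mesenchymal cells, covered 12717, 13072 and 5394 bp in WT and 5560, 6183 and 5228 bp in KO. FOXC1, a forkhead factor of the developing skeleton, covered 9292, 8174 and 4700 bp in WT and 6282, 4796 and 4268 bp in KO. SOX9, the master factor of cartilage, covered 7381, 6416 and 4822 bp in WT and 7499, 3613 and 4110 bp in KO. In all 3, KO replicate 1 lay above WT replicate 3. TBX3 and MEIS2 had medians of 4231 and 3868 bp.

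The canonical start of RUNX2, the osteoblast master factor, lay outside the domains, but another annotated start of it lay in the domain ranked 245, chosen here after its values were seen. That domain covered 6698, 5768 and 5278 bp in WT and 4577, 3321 and 3317 bp in KO. WT was above KO without overlap there, as in 45.6% of all 17298 regions. The domain ranked 52 held starts of other RUNX1 transcripts, likewise named after its values were seen, and covered 11981, 10566 and 4713 bp in WT and 9421, 4888 and 5943 bp in KO. In all, 25 of the 60 domains without a canonical protein-coding start held the start of another protein-coding transcript, 21 held a lncRNA start and 14 held neither.

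Other lists of the cell's lineage were rarer in the domains. BMP2, a bone growth factor, was the only one of 16 bone matrix and osteoblast genes, at 5659, 5619 and 3388 bp in WT and 3471, 3501 and 3347 bp in KO. HOXC9 was the only one of 39 HOX genes, at 8489, 7817 and 4612 bp in WT and 4247, 3907 and 4189 bp in KO. None of 29 transcription factors of other lineages lay in a domain, which allows a share of up to 11.7% by the Wilson interval. A region called in all 6 libraries nevertheless lay at 19 of those 29 starts, as at 33 of the 46 mesenchymal starts, so that a peak of some width was frequent in both lists. Median covered lengths at these starts were 1703 bp for the factors of other lineages and 2264 bp for the mesenchymal ones.

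**Figure D2:**
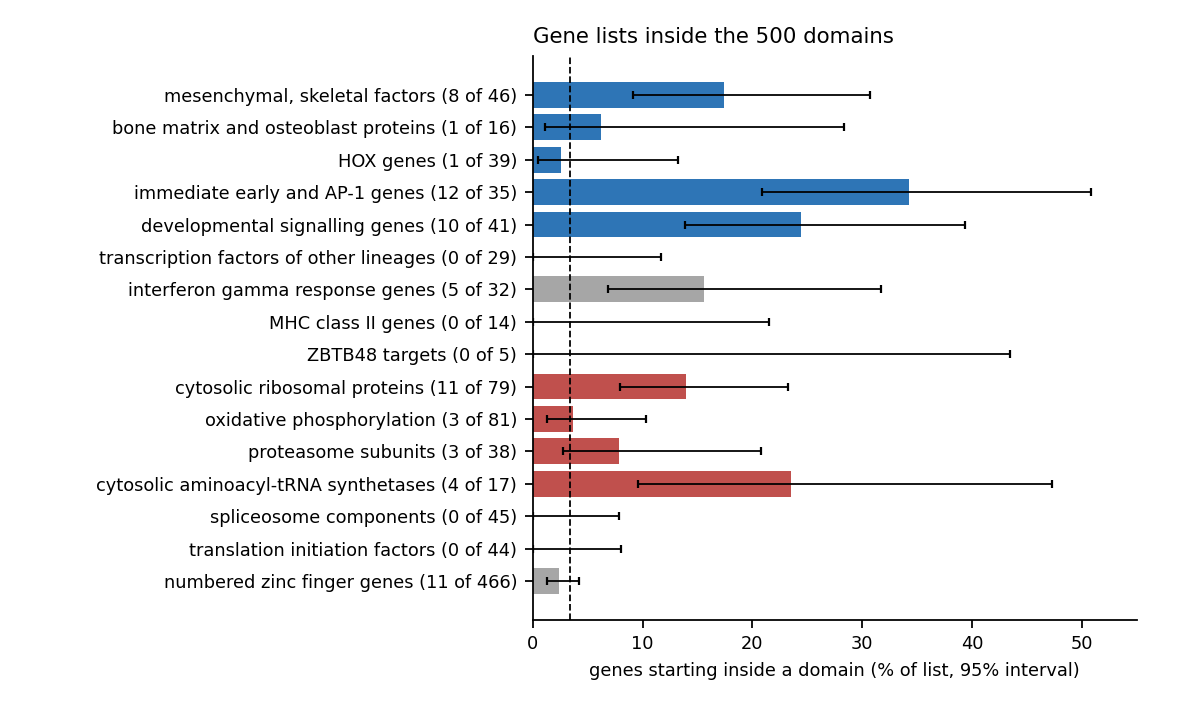
Share of each gene list with its canonical 5′ end inside a domain (percent, horizontal axis), with bars for the share, lines for 95% Wilson intervals and a dashed line at 3.38% for all autosomal protein-coding genes; blue bars are identity and signalling lists, red bars housekeeping lists and grey bars other lists. Immediate early genes reached 34.3%, and lists of spliceosome and translation initiation genes stood at 0.

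Housekeeping lists differed among themselves. Of 79 cytosolic ribosomal protein genes, 11 lay in domains, or 13.9% (7.96 to 23.2%), and 2 of those were alone. RPL23A stood in the 4-gene domain ranked 6, RPL8 shared its domain with ZNF34, RPL28 with TMEM238, RPS2 with NDUFB10 and RNF151, and RPL7 with RDH10. RPL3 was alone and covered 8047, 7632 and 5084 bp in WT and 4309, 4379 and 4188 bp in KO. Its WT values were above KO without overlap, as in 45.6% of all 17298 regions. Of 17 cytosolic aminoacyl-tRNA synthetase genes, which charge tRNAs with amino acids, 4 lay in domains, or 23.5% (9.56 to 47.3%), namely WARS1, TARS1, GARS1 and KARS1. With 17 genes the interval was wide.

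Oxidative phosphorylation had 3 of 81 genes in domains, NDUFB10, ATP5F1D and UQCRH, each beside another gene. Proteasome subunits had 3 of 38, PSMB8 and PSMB9 in 1 domain and PSMB3 with PCGF2 in another. None of 45 spliceosome genes and none of 44 translation initiation factor genes lay in a domain, which allows shares of up to 7.87% and 8.03%. All 45 spliceosome starts and 41 of the 44 initiation factor starts nevertheless lay in a region called in all 6 libraries, with median covered lengths of 2062 and 2230 bp.

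Genes of the IFNγ response had 5 of 32 starts in domains, or 15.6% (6.86 to 31.8%), in 3 distinct domains. TAP1, PSMB8 and PSMB9, which encode the peptide transporter and the immunoproteasome subunits of antigen presentation, shared chr6:32841581-32858507. That domain covered 16927, 15785 and 6309 bp in WT and 7733, 4769 and 4752 bp in KO, and was 1 peak in WT replicates 1 and 2 and 2 peaks in the other 4 libraries. WARS1, the tryptophanyl-tRNA synthetase, shared its domain with WDR25 and covered 15105, 13597 and 5393 bp in WT and 3626, 4713 and 4445 bp in KO. IRF1, the transcription factor of the response, was alone and covered 8574, 8849 and 6057 bp in WT and 5581, 3332 and 3266 bp in KO. WARS1 and IRF1 had WT above KO without overlap, as did 45.6% of all regions, and the TAP1 domain overlapped.

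None of 14 MHC class II genes and none of 5 ZBTB48 target genes lay in a domain. Regions called in all 6 libraries were present at 2 of the 14 and at 3 of the 5 starts, with median covered lengths of 1397 and 2057 bp. Numbered zinc finger genes, a large family of mostly repressive DNA-binding proteins, had 11 of 466 starts in domains, or 2.36% (1.32 to 4.18%). The 6 broadest were ZNF34, ZNF516, ZNF423, ZNF503, ZNF608 and ZNF703, with medians of 5580, 4433, 4303, 4261, 4007 and 3917 bp.

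Replication-dependent histone genes, a family chosen after its values were seen, had 24 of 69 members in 9 domains, 8 of them on chromosome 6. These genes are short, lack introns and stand in clusters. The domain of H2BC13, H2AC13, H3C10, H2AC14 and H2BC14 covered 10307, 10586 and 5274 bp in WT and 3846, 3282 and 2942 bp in KO, and was 1 peak in WT replicates 1 and 2 and 3 to 5 peaks in the others. Chromosome 6 held 43 domains among its 1000 regions, or 4.3%, the highest share of any autosome, and chromosome 21 held 2 of 180, or 1.11%, the lowest.

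Each library covered the domains more widely than other regions, and the level followed the kind of list. Median covered lengths over the 500 domains were 7385, 6783 and 4292 bp in WT replicates 1 to 3 and 4315, 3750 and 3539 bp in KO replicates 1 to 3. In the other regions they were 2718, 2747 and 1727 bp in WT and 1700, 1515 and 1422 bp in KO. WT replicates 1 and 2 took no part in the ranking, but their peaks helped to set the limits of the regions. They had 281 and 288 of the domains among their own 500 widest regions, which is not independent of the choice. In the 4 ranking lists this number was 380 to 420. The domains held 6.36 to 7.28% of all autosomal DNA under peaks in a library, while they were 2.89% of the regions.

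**Figure D3:**
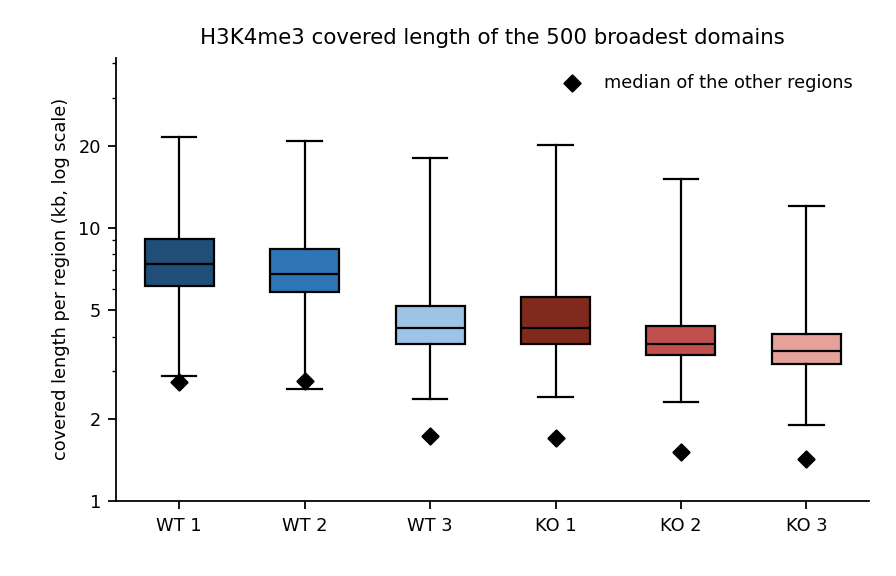
Covered length per domain (kb, log scale) in each library, with boxes for the quartiles and median, whiskers to the lowest and highest domain, and diamonds at the median of the other 16798 regions. WT replicate 3 has a median of 4292 bp, next to 4315 bp in KO replicate 1, while WT replicates 1 and 2 stand at 7385 and 6783 bp.

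The total covered length of the 500 domains was 3.96, 3.72 and 2.32 Mb in the WT replicates and 2.46, 2.01 and 1.85 Mb in the KO replicates. WT averaged 3.33 ± 0.885 Mb (SD, n = 3) and KO 2.11 ± 0.315 Mb (SD, n = 3), a difference of 1.22 Mb. Covered length in 4 of these libraries chose the domains, and the difference is therefore given without a test. It was 0.395 Mb when regions were built from the 4 ranking lists alone, 0.543 Mb with peaks of a fold enrichment of at least 4 and 0.632 Mb with peaks over at least 50% of a region in each list. WT replicate 3 was 0.212 Mb above the KO mean and below KO replicate 1. Genotype and the kind of list cannot be told apart in WT replicates 1 and 2.

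In single domains, all 3 WT replicates were above all 3 KO replicates in 188 of the 500, or 37.6%, against 45.6% of all 17298 regions. The reverse occurred in 0 domains, against 0.168% of all regions. With WT replicate 3 alone, 189 domains (37.8%) were above all 3 KO replicates, against 51.7%, and 37 (7.4%) were below, against 3.52%. The count in favour of WT became 469 without WT replicate 3, where 81.9% of all regions separated this way, and 338 without KO replicate 1, where 78.2% did. The median ratio of the WT mean to the KO mean was 1.57 in the domains and 1.499 in the other regions, and with WT replicate 3 alone 1.08 and 1.11. The ranking favours regions that are long in the KO lists, which bears on these shares directly, and nothing is read from their distance to the shares over all regions.

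The widest separation was at TSC22D2, a leucine zipper factor, where WT covered 8925, 8539 and 7328 bp and KO 3764, 3910 and 2910 bp, a gap of 3418 bp. At RGMB, a co-receptor of bone morphogenetic proteins, WT covered 9393, 9242 and 6986 bp and KO 4332, 4143 and 2837 bp, a gap of 2654 bp. At NNMT, a nicotinamide methyltransferase, WT covered 10223, 7773 and 6107 bp and KO 3398, 3276 and 3881 bp, a gap of 2226 bp. In each of these 3 domains WT replicate 3 stood with the other WT replicates, far above the KO range. The domains of NDUFB10 with RPS2 and RNF151 and of TUBGCP6 with HDAC10 had gaps of 2510 and 2499 bp. These 5 were chosen for their separation, and no test was made on them.

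In the opposite direction, WT replicate 3 lay farthest below the KO replicates at SNAPC1, a subunit of the small nuclear RNA activating complex, named after its values were seen. WT replicates covered 8480, 6353 and 2371 bp there and KO replicates 4038, 4236 and 3576 bp. WT replicates 1 and 2 were nonetheless the highest of the 6.

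Domains were broken into several peaks far more often than other regions in the 4 lists of low fold enrichment. The share of domains held by 1 unbroken peak was 96.8, 94.6 and 70.4% in the WT replicates and 68.2, 64.8 and 64.6% in the KO replicates. Other regions were unbroken in 98.4 to 99.5% of cases in every library. WT averaged 87.3 ± 14.6% (SD, n = 3) and KO 65.9 ± 2.02% (SD, n = 3), a difference of 21.4 percentage points at the smallest p the two-sided exact permutation test allows (p = 0.1, adjusted p = 0.3 over the 3 tests computed), which 20 possible assignments set. The difference was 8.73 points when ranking by the longest peak, 8 with regions from the 4 ranking lists alone, 2.53 with peaks over at least 50% of a region and 0.600 with a fold enrichment of at least 4. WT replicate 3 was 4.53 points above the KO mean and the 3 WT replicates were all above the 3 KO replicates. Wider regions have more room for a break, and the part of width in this contrast was not tested. Regions were merged over all lists, so a break is counted only where peaks of other lists span it. The WT lists of high fold enrichment spanned most such breaks, and their high unbroken shares follow in part from this rule. The permutation test cannot separate genotype from the rule, and nothing on genotype is read from its p.

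Breaks recurred at the same domains. In all 4 lists of low fold enrichment 125 domains were broken, and 88 of these were 1 peak in both WT replicates 1 and 2. In all 6 libraries 287 domains were unbroken and 1 was broken. Domains with several protein-coding starts were broken in all 4 lists in 62 of 144 cases, or 43.1%, against 54 of 296, or 18.2%, of those with 1 start and 9 of 60, or 15%, of those with none. The domain of MAZ to MVP was the most broken, with 1 peak in WT replicates 1 and 2, 4 peaks in WT replicate 3 and KO replicate 1, and 5 in KO replicates 2 and 3. MFSD3 with RECQL4 and LRRC14 was the domain broken in all 6, with 2 peaks in WT replicates 1 and 2 and 3 in the other 4 libraries. PLEC and ZFP36 with PLEKHG2, broken into 2 to 4 peaks in the ranking lists, followed.

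The DNA between the peaks of broken domains was poorer in CpG than the DNA under the peaks of all domains. WT replicate 3 and the 3 KO replicates had 167, 177, 209 and 206 such gaps, with median lengths of 1988 to 2346 bp. The gaps held a median of 2.24 to 2.80 CpG per 100 bp, and the covered DNA of the domains 5.39 to 6.29. In WT replicate 1 a peak lay over the midpoint of 93.8 to 95.6% of these gaps, and in WT replicate 2 over 87.4 to 90.4%. Any other of the 4 lists covered 4.19 to 29.1% of them. A gap is counted only where peaks of other lists span it, because regions were merged over all 6 lists. The high cover in WT replicates 1 and 2 follows in part from this rule. Among the gaps so counted, the 4 lists left mostly the same stretches uncovered.

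**Figure D4:**
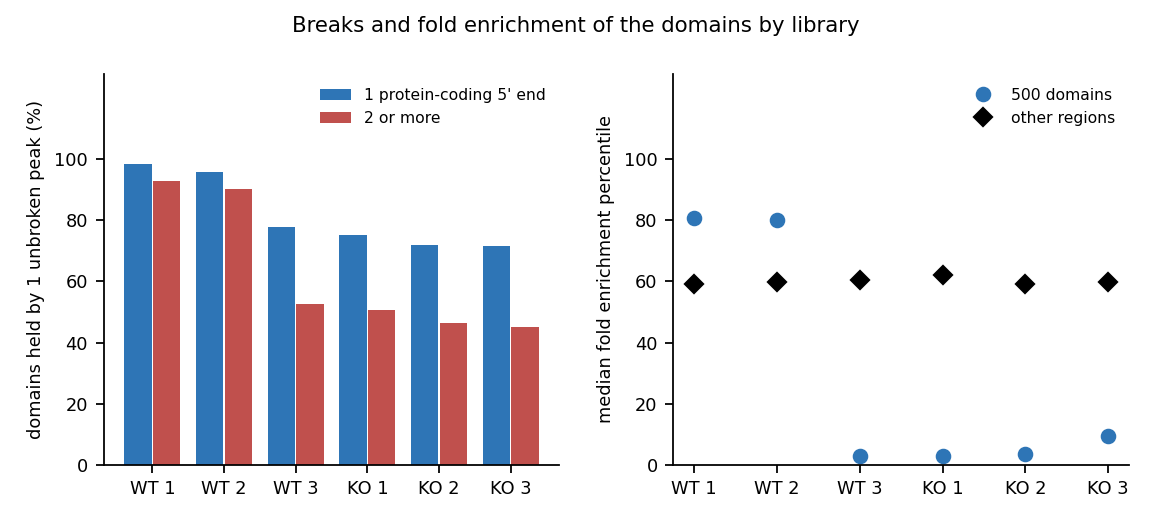
Left, percent of domains held by 1 unbroken peak in each library, for the 296 domains with 1 protein-coding 5′ end (blue) and the 144 with 2 or more (red). Right, median percentile of a region's best peak by fold enrichment within its own list, for the domains (circles) and other regions (diamonds); the domains stand at 80.7 and 80.0 in WT replicates 1 and 2 and at 2.69 to 9.27 in the other libraries.

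Fold enrichment within a library placed the same domains at opposite ends of the 2 kinds of list, an observation made after the values were seen. The best peak of a domain was at a median percentile of 80.7 and 80.0 of its list in WT replicates 1 and 2. It was at 2.69 in WT replicate 3 and at 2.85, 3.64 and 9.27 in the KO replicates. Other regions stood at 59.0 to 62.2 in every library. At TNRC18 the fold enrichment was 36.8 and 36.3 in WT replicates 1 and 2, 1.59 in WT replicate 3 and 1.60 to 1.70 in the KO replicates. At BCL11A it was 29.0 and 36.4, then 1.66, and 1.71 to 1.83. The typical broad domain was therefore more enriched than most peaks in 2 libraries and less enriched than nearly all peaks in the other 4. Those 4 lists are the ones that ranked the domains, by covered length and without a minimum on fold enrichment. With a minimum of 4 before ranking, 4 of the 500 domains were retained. The choice of domains thus bears on this contrast, and its part was not tested.

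Around genes with a domain of their own, the mark extended on both sides of the 5′ end and farther into the gene. In WT replicate 3 the 296 domains with 1 protein-coding 5′ end covered a median of 1346 bp upstream and 2910 bp downstream, against 632 and 1236 bp in the other regions. The share of covered length lying downstream was 66.8, 64.9 and 65.6% in WT and 64.1, 66.8 and 67.8% in KO. WT averaged 65.8 ± 0.971% and KO 66.2 ± 1.90% (SD, n = 3 each), a difference of -0.48 percentage points well within the spread (two-sided exact permutation p = 0.7, adjusted p = 0.7). WT replicate 3 alone stood -0.69 points from the KO mean. In the other regions the share was 62.9 to 67.4%. The downstream shares of the domains and of the other regions thus overlapped, while the domains were longer on both sides.

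Single genes departed from this in either direction. KDM6B had 93.2% of its covered length downstream, with a mean of 7220 bp inside the gene and 527 bp upstream over the ranking lists. KLF6 had 87.9% and BRD2 84.7% downstream. ZNFX1, with ZFAS1 on the other strand, had 23.9%, VGF 32.1% and ARHGEF2 33.5%. VGF and BHLHE40 were among the 37 genes, 12.5% of the 296, that lay wholly inside their domain, against 1.97% in the other regions. Genes under 10 kb made up 20.6% of the 296 and 14.5% of the genes in other regions, and median gene lengths were 34880 and 41728 bp.

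**Figure D5:**
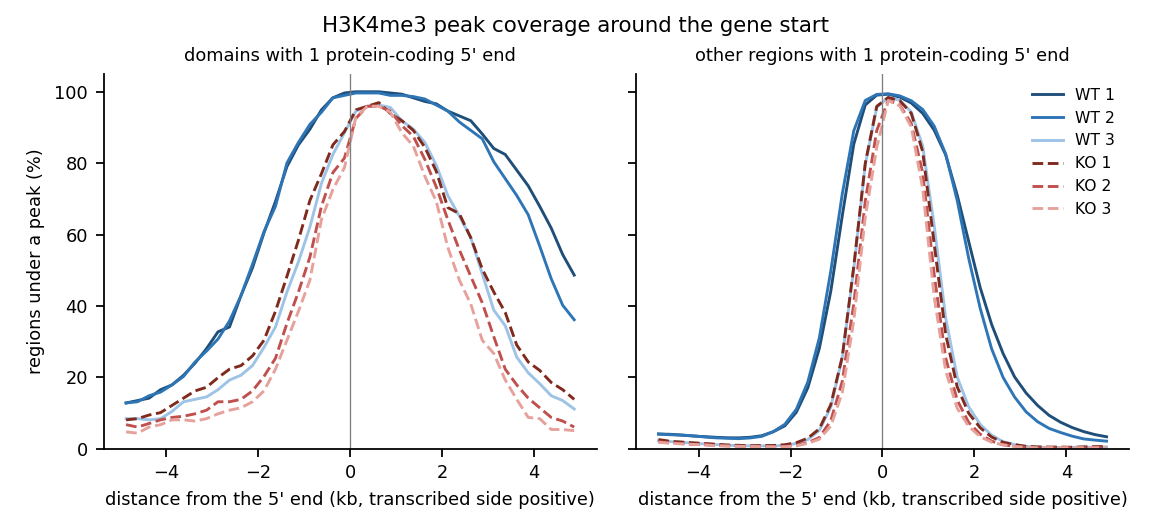
Percent of regions under a peak (vertical axis) by distance from the 5′ end (kb, transcribed side positive), for the 296 domains (left) and the other regions (right) with 1 protein-coding 5′ end, with solid lines for WT and dashed lines for KO. In the bin centred 4125 bp into the gene, 67.9% and 56.8% of the domains lay under a peak in WT replicates 1 and 2, 18.2% in WT replicate 3 and 8.45 to 21.96% in KO.

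Counted over whole merged regions, the CpG density of the domains was close to that of narrower regions. The median was 3.94 CpG per 100 bp against 3.82, and the GC content 53.9% against 52.4%. At equal distance from a single protein-coding start the 2 sets differed. In the bin centred 1125 bp into the gene the density was 5.50 in domains against 2.72 CpG per 100 bp, and 1125 bp upstream 4.47 against 2.08. In the bin centred at 125 bp it was 10.3 against 10.5. Because the domains were wider, they held a median of 309 CpG against 114. Domains with 1 protein-coding start had a median of 4.24 CpG per 100 bp, those with several 3.95 and those with none 2.69. LINC00973 at 0.36 and MIR100HG at 0.66 CpG per 100 bp, both lncRNA domains named after their values were seen, lay under 1.51 CpG per 100 bp, which 5% of the domains did. LINC00973 covered 6079, 6132 and 4444 bp in WT and 4346, 4596 and 3380 bp in KO.

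TATA box letters were about as frequent at the domain genes as at all genes and more frequent than at marked genes in general. RefSeq promoters (250 bases before to 50 after the start, GRCh38.p14) were matched for 498 of the 645 genes. TATAAA, on either strand, occurred in 10.8% of them, against 5.09% of genes in any region called in all 6 libraries and 9.72% of all protein-coding genes. CCAAT occurred in 42.6%, 36.4% and 36.3%, and GGGCGGG in 56.6%, 55.9% and 45.4%. TGACGTCA occurred in 3.61%, 3.47% and 2.70%, CACGTG in 9.84%, 9.96% and 8.76%, and the AP-1 site TGANTCA in 4.82%, 4.18% and 5.69%. Genes alone in a domain held TATAAA in 11.8% and genes sharing one in 10% of cases, both above the 5.09%. These matches are descriptions of the letters, and no binding was measured.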

How the data were processed

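H3K4me3 ChIP-seq libraries of 3 WT and 3 ZBTB48 KO clones of U2OS cells, all treated with IFNγ, were represented by 6 deposited lists of broad peaks on GRCh38. Per the study's methods and the submitters' processing notes, the authors trimmed reads with Trimmomatic, aligned them with Bowtie2 (2.3.5.1), removed multi-mapping and duplicate reads and called broad peaks for each library with MACS2 (2.1.1.2). The deposited columns hold each peak's position, a display score, its fold enrichment (a ratio of signal to background) and the −log10 of its p-value and q-value. The lists give no read counts, so that no count-based interval can be given. The paper states a range of read numbers over its ChIP-seq samples, but the depth of each library is unknown.

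Peaks on chromosomes 1 to 22 were merged over the 6 lists where they touched, without a minimum on any value, and an overlap of 1 bp counted as a call. Covered length is the DNA under one library's peaks within a region. Gene starts are the 5′ ends of canonical transcripts in GENCODE 44. Library values were compared by two-sided exact permutation tests (scipy 1.17.1) with Benjamini-Hochberg adjustment over 3 tests, of which that on total covered length is not given because the ranking used its values. The code for the ranking, breaks and non-overlap counts was run on simulated peak lists. There, 500 of 500 wide regions and 148 of 148 breaks were recovered. Of 16692 regions simulated without a genotype difference, 1672 were called non-overlapping. The recovery counts are a check of the code only. They do not show how well the ranking separates domains in the real lists, where no gap stood at the limit. Genes were named by rank: those in the 15 broadest domains, up to 6 per list, those at the limit, the 5 widest gaps between genotypes and the 5 most broken domains. The domains and gene lists were chosen with earlier results of these data known. The alternatives were a minimum q or fold enrichment, other rankings and merging, other numbers of domains and leaving out each library. A gene that the naming rule covers is not reported here.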

Additional observations from a re-analysis of the deposited data

How the results depend on the processing

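Of 145 values recomputed under alternative settings, 125 were counted as kept, 18 moved more and 2 reversed. For the genotype differences in total length, unbroken share and downstream share, kept meant the same sign, whatever the size. For the other values it meant a small move. The replicate block leaves a difference unchanged by construction, and its values are among those kept. Requiring a fold enrichment of at least 4 changed most, since only 4 of the 500 domains were retained: the median covered length in WT replicates 1 and 2 fell from 7083.5 to 3432.5 bp, the identity and signalling share to 1.13% and the housekeeping share to 4.28%. With peaks over at least 50% of a region in each list, 151 domains were retained, the length was 4848.25 bp and the identity and signalling share 11.9%. Regions built from the 4 ranking lists alone gave 4517 bp and 4.97 CpG per 100 bp, and ranking by the longest peak 6396.5 bp. With 1000 domains the values were 6152.5 bp, 33.9% and 12.2%, and 426 domains had WT above KO. With 250 domains they were 8176 bp and a housekeeping share of 3.29%, and 92 domains had WT above KO. With WT replicate 3 against KO, 37 domains had KO above. Leaving out 1 library at a time gave 189 to 469 domains with WT above KO, 469 without WT replicate 3 and 338 without KO replicate 1, while the share over all regions was 45.8 to 81.9%. It gave a total length difference of 0.896 to 1.68 Mb and an unbroken share difference of 16.9 to 26.3 points. Other settings took these as low as 0.395 Mb (regions from the 4 ranking lists) and 0.600 points (fold enrichment of at least 4). The downstream share difference, -0.48 points, ranged from -1.45 to 0.21 and was 0.21 without KO replicate 3 and 0.20 when ranking by the longest peak, at an exact permutation p of 1 in each. Beyond the settings that drop peaks, regions or libraries by construction, the cause was not tested. Replicate numbers are shared by the genotypes but belong to different clones. With the replicate block the differences of 1.22 Mb, 21.4 points and -0.48 points kept their size, and the last 2 had exact permutation p of 0.25 and 1, where 0.25 is the smallest possible. The depth of each single library is unknown for these lists.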

Other observations

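On chromosome X, which the ranking left out, 10 of 622 regions called in all 6 libraries reached the limit of 3372 bp, or 1.61%, against 2.89% of autosomal regions. They included genes for chromatin regulators and for the cytoskeleton. BCOR, a corepressor of BCL6, covered 7062, 7115 and 4830 bp in WT and 5052, 4857 and 4139 bp in KO. FLNA, the actin crosslinker filamin A, covered 10386, 8317 and 4515 bp in WT and 5120, 4700 and 3742 bp in KO. HCFC1, a chromatin-associated cell-cycle factor, covered 7862, 6366 and 4260 bp in WT and 4641, 3945 and 4158 bp in KO. KO replicate 1 was above WT replicate 3 in each of these 3.

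Domains also stood near each other, with 47 neighbouring pairs within 100 kb. The domain of CBARP and ATP5F1D lay 2282 bp from that of MIDN on chromosome 19, and 2 histone domains on chromosome 6, of H2BC11 with H2AC11 and of H4C9 with H2BC12 and H2AC12, lay 2925 bp apart.

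Several domains covered lncRNA genes. NEAT1, the scaffold RNA of nuclear paraspeckles, covered 13605, 11831 and 4251 bp in WT and 4125, 3145 and 3984 bp in KO. MIRLET7BHG, a host of let-7 miRNAs, covered 14124, 10963 and 8230 bp in WT and 6170, 6333 and 6694 bp in KO. WT was above KO without overlap at both, as in 45.6% of all autosomal regions called in all 6 libraries.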
